A study of Mus musculus with 12 samples.

Results

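The clustered histone genes of mouse code for the linker histone H1 and the core histones H2A, H2B, H3 and H4, and lie in groups on a few chromosomes. They were taken here as the genes whose GENCODE M21 name begins with Hist1h, Hist2h, Hist3h or Hist4h and which were listed at 1 TPM or more in at least 3 of the 12 libraries of the series. TPM is the number of transcripts of a gene per 1000000, a level corrected for transcript length. Of 70 genes with such names 68 were in the table and 36 met the rule, out of 21959 genes in all. The members were 3 of 6 H1 genes, 3 of 18 H2A genes, 13 of 19 H2B genes, 8 of 12 H3 genes and 9 of 13 H4 genes. The level of a gene thus chose it, and membership itself is no result. Without the 3 libraries in low NaHCO3, 27 of the 36 would still have met the rule. The other 9 (Hist1h1e, Hist1h2ac, Hist1h2bb, Hist1h2be, Hist1h2bf, Hist1h3e, Hist1h4f, Hist2h3c2 and Hist3h2bb-ps) are members only through that group, so a higher level there is partly built into their choice, and their values in it are given below as a description with no test.

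The libraries were made from C8-D1A cells, an established mouse astrocyte line, collected after 24 h in each condition. The 4 groups of 3 libraries each were cells under 15% CO2, cells given 20 mM lactic acid, cells in medium with 0.2 g/L NaHCO3 (low NaHCO3), and control cells at 37 °C under 5% CO2. No genetic change was part of any group. The study set 3 ways of acidifying the medium side by side. Nothing in the labels says whether the 3 libraries of a group are 3 cultures, so p-values measure the spread between these libraries, which may be technical.

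Histones wrap DNA into nucleosomes, with H3 and H4 at the core, H2A and H2B on either side and H1 on the linker DNA between them. Most clustered histone genes have no introns, are transcribed mainly while DNA is replicated, and give mRNAs that end in a conserved stem-loop in place of a poly(A) tail. The stem-loop binds the protein Slbp, which carries the mRNA through processing and translation, and some members can also give polyadenylated mRNAs. Whether the libraries were made from poly(A) RNA or from RNA depleted of ribosomal RNA is not given in the sources used here, so the levels below describe the histone RNA that these libraries captured.

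The library labelled control 1 stood apart from the other 11. Over all genes its Spearman correlation with them was 0.817 to 0.881, against 0.929 to 0.998 among the others, and it had 17319 genes above 0 TPM where they had 14531 to 15419. Each of the 9 neuron markers examined was higher in it than in every other library, as were 6 of 7 oligodendrocyte markers, 7 of 8 microglia markers, 6 of 6 endothelial markers, 5 of 5 red blood cell markers and 7 of 9 astrocyte markers. The neuron markers summed to 2414 TPM in control 1 and to 95.1 to 149 TPM in the others, the oligodendrocyte markers to 996 against 109 to 213 TPM, the microglia markers to 242 against 62.8 to 95.3 TPM, the endothelial markers to 70.7 against 16.0 to 20.1 TPM, and the red blood cell markers to 355 against 0.594 to 4.01 TPM. Of the genes that define astrocytes, the glutamate transporter gene Slc1a3 was at 145 TPM in control 1 and at 0 to 0.0210 TPM elsewhere, the transporter gene Slc1a2 at 316 and at 0.0405 to 0.416 TPM, and the water channel gene Aqp4 at 45.3 and at 0 to 0.356 TPM. Outside control 1, Gfap and Aldh1l1 were also low, at up to 1.19 and 0.641 TPM. The other 4 of the 9 astrocyte markers were well above 0 in every library: S100b was at 128 TPM in control 1 and at 33.5 to 49.8 TPM in the others, the glutamine synthetase gene Glul at 1042 and at 43.7 to 74.9 TPM, the transcription factor gene Sox9 at 23.8 and at 31.2 to 52.5 TPM, and the intermediate filament gene Vim at 1000.4 and at 1327 to 2678 TPM. The main comparisons with control are therefore given with and without that library.

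Stem-loops of 4 abundant members that were higher in low NaHCO3 are printed first, since this element ends the mRNAs of most clustered histone genes. The letters are the sense strand of the longest M21 transcript with 5 bases on each side, and the capitals mark the match to the 16-base histone stem-loop motif (GG, any 2 bases, CTT, any base, T, any base, AG, any 2 bases, CC, sought on the sense strand).
Hist1h4i: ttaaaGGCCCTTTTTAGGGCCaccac
Hist3h2ba: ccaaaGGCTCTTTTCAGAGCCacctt
Hist1h2bg: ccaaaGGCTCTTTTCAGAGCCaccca
Hist1h1c: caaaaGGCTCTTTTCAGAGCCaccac
The motif was found in the longest transcript of 27 of the 36 members, while 165 of 21851 genes with an M21 transcript (0.755%) held it in any transcript, 119 of them genes outside the histone clusters. The 16 letters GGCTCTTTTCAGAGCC were those of 14 members, in the H1, H2A, H2B and H3 types. The 8 H4 genes with a match differed from them in the paired arms, with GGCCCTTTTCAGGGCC in 4 of them and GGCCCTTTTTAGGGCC in Hist1h4i and Hist2h4. No match to these letters was in the longest transcript of Hist1h2bc or Hist2h2be, 2 of the most abundant members. In 17 members the annotated transcript went on for more than 100 bases after the motif, as in Hist1h1c with 840 bases and Hist1h4i with 330 bases, and in 10 members for at most 100 bases.

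Levels among the members were uneven. A mean of at least 5 TPM over the 12 libraries was reached by 8 members, 8 members were at 1 TPM or more in every library, and 18 members were listed at 0 in at least 1 library. The H4 gene Hist1h4i, the H2B genes Hist1h2bc, Hist2h2be and Hist3h2ba, and the H1 gene Hist1h1c together held 82.6% to 83.6% of the summed member TPM in the low-NaHCO3 libraries and 56.8% to 74.4% in the other 9. Just inside the rule, with exactly 3 libraries at 1 TPM or more and means of 0.638 to 0.960 TPM, were Hist1h2bl, Hist1h4a and Hist1h4j, and just outside it, with 2 such libraries and a mean of 0.336 TPM, was Hist1h2ag. Of the 32 genes outside the rule 9 were listed at 0 in every library. Many of these genes share sequence with near-identical copies. The median share of 100-base stretches of the annotated transcripts that occurred in another gene was 29.1% for members and 54.5% for the other named genes. Of the 9 genes at 0 in every library 5 had over 50% of such stretches in another gene. Since the median of all genes outside the rule was itself over 50%, this count does not set the genes at 0 apart. How reads were divided between such copies is not given in the sources used here, and its part in the levels was not tested.

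**Figure D1:**
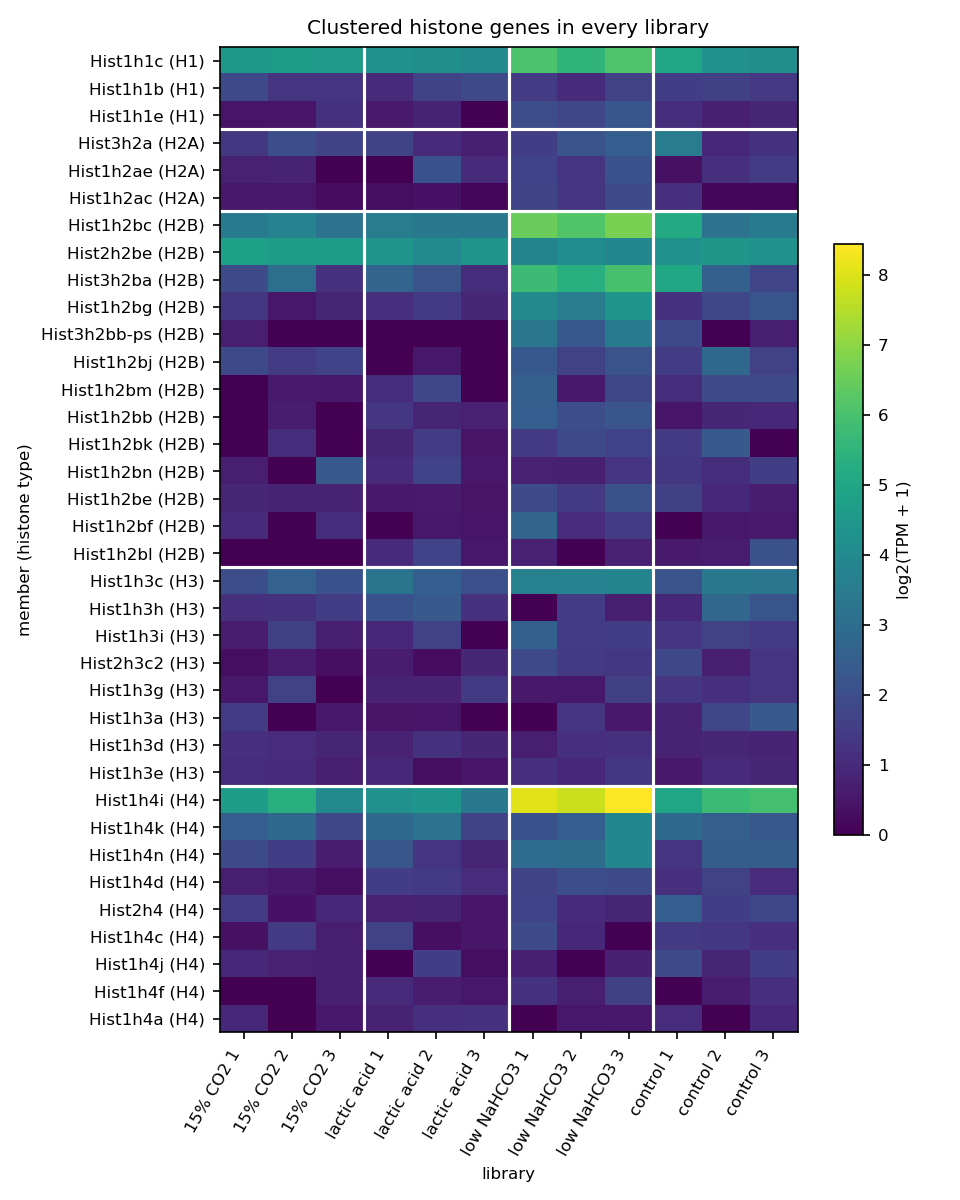
Level of each of the 36 members in each of the 12 libraries, as log2(TPM + 1) on the colour scale, with members grouped by histone type and ordered by mean TPM within a type. The brightest cells are Hist1h4i and Hist1h2bc in the 3 low-NaHCO3 libraries. Hist1h1c and Hist3h2ba are also bright there, at 39.1 to 69.1 TPM, as is Hist1h4i in controls 2 and 3, at 52.9 and 59.3 TPM.

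In low NaHCO3, RNA of a subset of histone genes was several times more abundant than in control cells. The summed TPM of the 36 members was 592, 463 and 723 in low-NaHCO3 cells, against 207, 170.3 and 170.3 in control cells, a ratio of means of 3.25. All 3 low-NaHCO3 sums lay above all 9 others. The sums here and by type below include the 9 members chosen through the low-NaHCO3 group. Part of the excess there is thus built into the choice, and sums without those 9 were not made. The highest of the 9 in low NaHCO3 was Hist3h2bb-ps, with a mean of 7.84 TPM, where the sum of all members had a mean of 593 TPM. In the smaller H2A sum, with a mean of 8.02 TPM there, Hist1h2ac had a mean of 2.26 TPM. TPM is a share of each library's RNA, so the sum is the part of captured RNA that came from these genes, and in bulk libraries fewer cells of a type and less RNA per cell cannot be told apart. Without control 1 the ratio was 3.48.

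The 5 histone types had unequal ratios, and in each a few genes made up most of the sum. H4 RNA summed to 287, 233 and 383 TPM in low-NaHCO3 cells and to 50.3, 69.4 and 76.8 TPM in control cells, a ratio of 4.6, and 4.12 without control 1. Hist1h4i gave most of it, and without this gene the H4 ratio was 1.37 and the ratio of all members 2.35. H2B RNA summed to 207, 153 and 231 TPM in low-NaHCO3 cells, against 98.0, 54.0 and 47.7 TPM in control cells, a ratio of 2.96, and 3.88 without control 1. H1 RNA summed to 69.7, 49.0 and 75.0 TPM in low-NaHCO3 cells, against 34.0, 21.1 and 19.5 TPM in control cells, a ratio of 2.60, and 3.18 without control 1. These 3 types had no low-NaHCO3 library within the range of the control libraries.

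H3 and H2A differed from that. H3 RNA summed to 22.0, 21.6 and 22.7 TPM in low-NaHCO3 cells, against 12.1, 23.6 and 23.1 TPM in control cells, a ratio of 1.13. The low-NaHCO3 sums lay within the control range, but all 3 were below controls 2 and 3, and without control 1 the ratio was 0.947, on the other side of 1. H2A RNA summed to 6.60, 6.43 and 11 TPM in low-NaHCO3 cells, against 12.3, 2.25 and 3.23 TPM in control cells, a ratio of 1.35. Control 1 was the highest of all libraries for H2A, and without it the ratio was 2.93. These sums are descriptions with no test, and sums of few TPM over 3 H2A genes carry more error than the larger ones. Of the 3 H2A genes, Hist1h2ac is a member only through the low-NaHCO3 group.

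**Figure D2:**
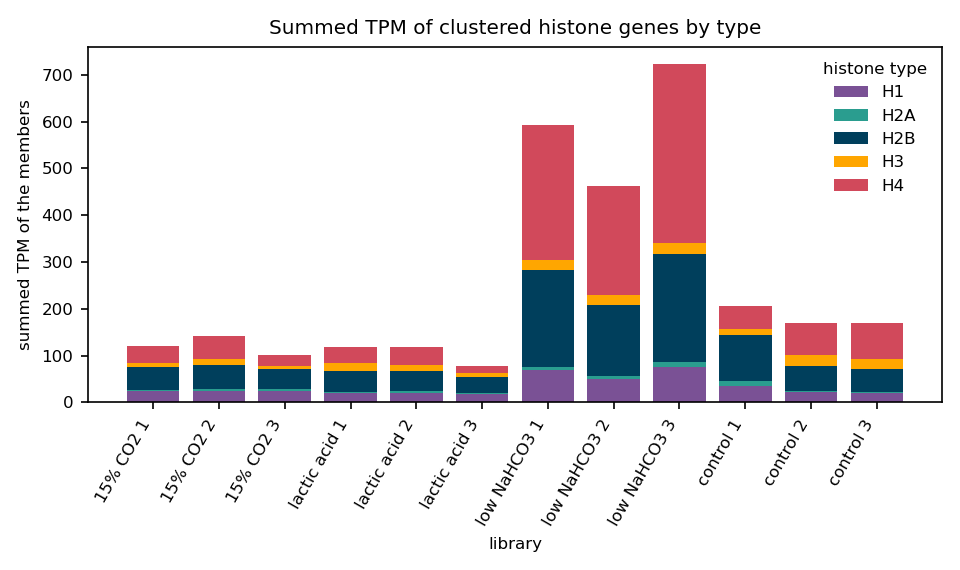
Summed TPM of the members in each library, stacked by histone type, with libraries along the horizontal axis. The 3 low-NaHCO3 bars reach 463 to 723 TPM and the other 9 bars 78.7 to 207 TPM, and most of the height of the low-NaHCO3 bars is H4 and H2B.

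Gene by gene, 7 of the 27 members that met the rule without the low-NaHCO3 group were higher in low-NaHCO3 than in control cells (25.9%) and 2 were lower (limma on log2(TPM + 1), adjusted p under 0.05 over 12326 genes). Of all genes that reached 1 TPM in 3 libraries outside low NaHCO3, 19.6% were higher and 35.4% lower, so the share of higher members was near that of genes at large. The 7 were Hist1h1c, Hist1h2bc, Hist1h2bg, Hist1h4d, Hist1h4i, Hist1h4n and Hist3h2ba, and the 2 were Hist1h3h and Hist2h2be. By type, the higher ones were 1 of 2 H1, 0 of 2 H2A, 3 of 9 H2B, 0 of 6 H3 and 3 of 8 H4 genes, and whether the types differed was not tested. The median difference of the 27 was 0.15 on the log2 scale and that of all genes tested -0.20. With libraries scaled by the median of gene ratios, which moved the median of all genes to -0.02, 8 of the 27 were higher and 0 lower, where 28.7% of such genes were higher and 26.8% lower. With quantile normalization 9 were higher and 0 lower, where 24.6% of genes were higher and 22.2% lower.

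Without control 1, 25 of the 27 were tested, 7 were higher and 3 lower, where 22.4% of such genes were higher and 41.3% lower. Of the 7 higher members Hist1h4n was lost without control 1, and Hist3h2a was added. The 9 members chosen through the low-NaHCO3 group differed from control by 0.27 to 2.19 on the log2 scale. Over all 36 members 13 were higher and 2 lower in the fit, where 19.8% of all 12326 genes were higher and 35% lower, a count that the choice of members raises.

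**Figure D3:**
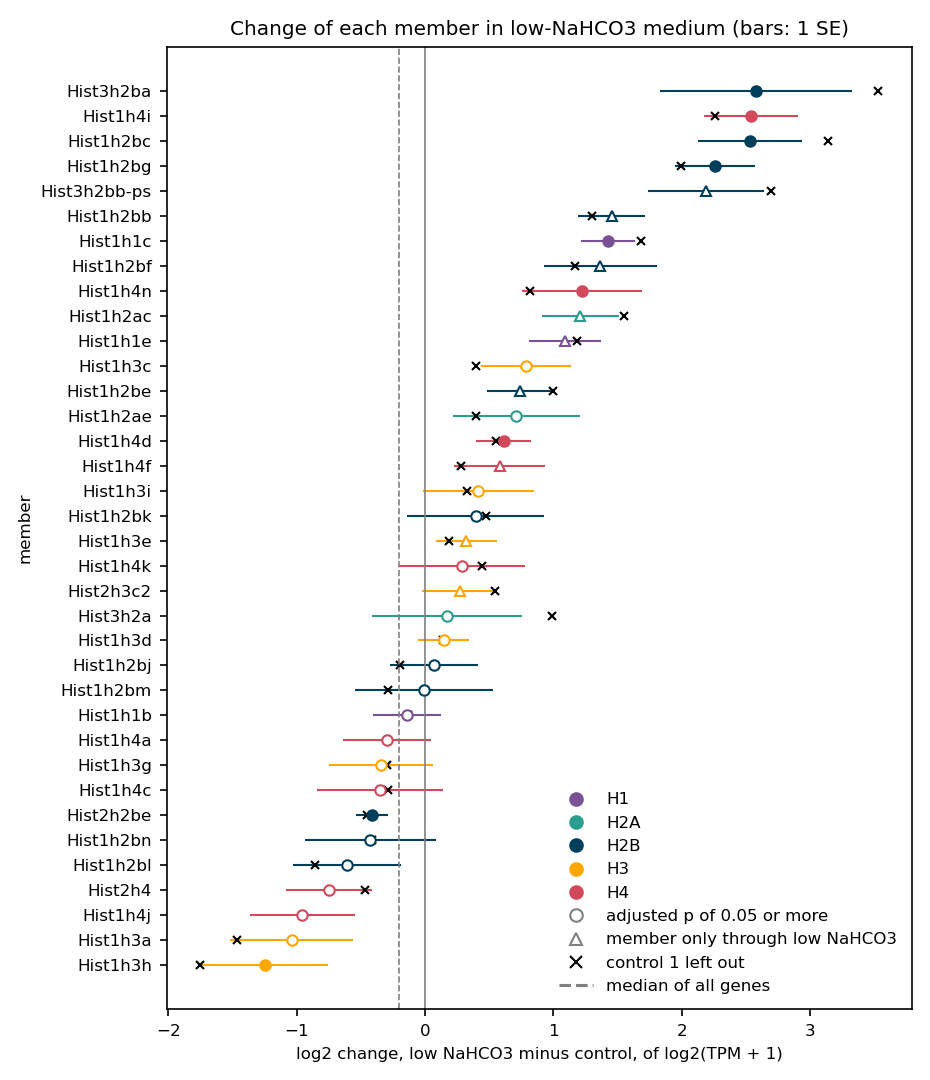
Difference of each member, low NaHCO3 minus control, in log2(TPM + 1) on the horizontal axis, with a bar of 1 SE, filled circles for adjusted p under 0.05, open triangles for the 9 members chosen through the low-NaHCO3 group, and crosses for the value without control 1 (34 members). The 5 members at the top lie at 2.19 to 2.58, and the dashed line is the median of all genes at -0.20.

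Among H4 genes, which code for the same protein of the nucleosome core, Hist1h4i (ENSMUSG00000060639) had the highest mean TPM of all members over the 12 libraries, though not in every group. It was at 267, 215 and 348 TPM in low-NaHCO3 cells, against 30.8, 52.9 and 59.3 TPM in control cells. Every low-NaHCO3 library was above every control library, with a ratio of mean TPM of 5.80. The difference was 2.54 on the log2 scale (SE 0.37, adjusted p = 0.000193) and 2.26 without control 1. In cells under 15% CO2 its level was 24.3, 37.8 and 15.2 TPM, and with lactic acid 18.2, 20.9 and 9.62 TPM. All 3 lactic acid libraries lay below all 3 control libraries, while the range under 15% CO2 overlapped that of control 1. Of its 100-base stretches 15.1% also occur in another gene.

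The other H4 genes were at lower levels and did not follow as a group. Hist1h4n had 6.8, 6.98 and 14.3 TPM in low-NaHCO3 cells, against 1.41, 4.57 and 4.59 TPM in control cells (log2 difference 1.22, SE 0.47, adjusted p = 0.0448). Without control 1 its difference was 0.82 with adjusted p = 0.123, and 80.7% of its 100-base stretches occur in another gene. Hist1h4d had 2.33, 3.08 and 2.81 TPM in low-NaHCO3 cells and 1.24, 2.11 and 1.08 TPM in control cells, with groups that did not overlap and a difference of 0.61 (SE 0.22, adjusted p = 0.0332). Hist1h4k, the second most abundant H4 member, had 3.41, 4.81 and 14.5 TPM in low-NaHCO3 cells and 6.47, 4.90 and 3.95 TPM in control cells, and its difference of 0.29 did not pass (adjusted p = 0.633). The remaining H4 members Hist1h4a, Hist1h4c, Hist1h4f, Hist1h4j and Hist2h4 differed by -0.96 to 0.58. Hist1h4f is a member only through the low-NaHCO3 group and is given with no test, and none of the others passed.

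H2B genes, whose products pair with H2A, had 3 higher members among the 9 chosen without the low-NaHCO3 group. Hist1h2bc (ENSMUSG00000018102) was at 90.3, 71.0 and 105 TPM in low-NaHCO3 cells, against 34.9, 8.32 and 9.81 TPM in control cells. The groups did not overlap, and control 1 was the highest library outside low NaHCO3. The difference was 2.53 on the log2 scale (SE 0.40, adjusted p = 0.000382), and without control 1 it was 3.14 with an SE of 0.18. Hist3h2ba (ENSMUSG00000056895), an H2B gene of the small cluster on chromosome 11, was at 54.5, 39.1 and 62.6 TPM in low-NaHCO3 cells, against 31.5, 4.98 and 2.41 TPM in control cells. The groups did not overlap, but the control libraries were spread widely, with control 1 far above the other two. The difference was 2.58 (SE 0.75, adjusted p = 0.0136), and without control 1 it was 3.53 (SE 0.54).

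Hist1h2bg (ENSMUSG00000058385) did not have that excess in control 1. It was at 14.6, 10.9 and 20.7 TPM in low-NaHCO3 cells, against 1.31, 2.48 and 3.59 TPM in control cells, and the groups did not overlap. The difference was 2.26 (SE 0.31, adjusted p = 0.000146), and 2.0 without control 1. Hist3h2bb-ps, annotated as a pseudogene next to Hist3h2ba, was at 9.06, 3.94 and 10.5 TPM in low-NaHCO3 cells, against 2.65, 0 and 0.647 TPM in control cells, a difference of 2.19 (SE 0.45). It was listed at 0 in all 3 lactic acid libraries and in 2 of the 3 libraries under 15% CO2. Hist1h2bb was at 4.71, 2.95 and 3.68 TPM in low-NaHCO3 cells, against 0.397, 0.860 and 0.971 TPM in control cells, a difference of 1.45 (SE 0.26). Hist1h2bf and Hist1h2be differed by 1.36 and 0.74. These 4 are members only through the low-NaHCO3 group. Hist1h2bf and Hist1h2be were under 6 TPM in every library, and Hist1h2be shares part of its annotated transcript with the neighbouring H1 gene Hist1h1e on the same strand, so reads there could count for either.

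Hist2h2be (ENSMUSG00000068854), the H2B gene on chromosome 3, went the other way. It was at 13, 16.3 and 14 TPM in low-NaHCO3 cells, against 18.4, 21 and 19 TPM in control cells, with no overlap. The difference was -0.41 (SE 0.12, adjusted p = 0.0155), and -0.45 without control 1. Since the median gene also fell by 0.20 on the log2 scale, the call depends on scaling: with libraries scaled by the median of gene ratios the difference was -0.23 with adjusted p = 0.149. It was also lost without low-NaHCO3 library 1 (adjusted p = 0.0656) and without control 2 (adjusted p = 0.0513). Under 15% CO2 the same gene had 26.5, 24.7 and 23.7 TPM, above all control libraries, but the difference of 0.34 did not pass (adjusted p = 0.222). No 100-base stretch of its transcript occurs in another gene. The remaining H2B members, Hist1h2bj, Hist1h2bk, Hist1h2bl, Hist1h2bm and Hist1h2bn, differed by -0.61 to 0.39 between low NaHCO3 and control, and none passed.

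**Figure D4:**
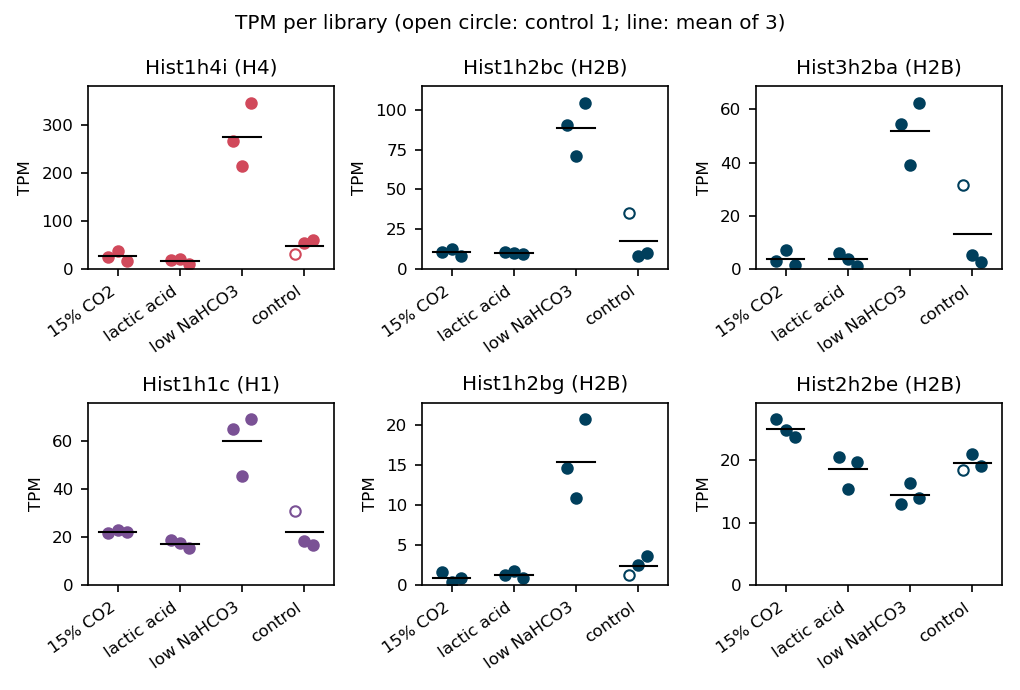
TPM of 6 members in each library, with groups along the horizontal axis, a line at each group's mean and an open circle for control 1. In 5 panels the low-NaHCO3 points lie above all others, and in the panel of Hist2h2be they lie among the lowest, at 13 to 16.3 TPM.

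Among H1 genes, whose products bind linker DNA, Hist1h1c (ENSMUSG00000036181) held 90.7% of the summed TPM. It was at 64.9, 45.5 and 69.1 TPM in low-NaHCO3 cells, against 30.9, 18.4 and 16.9 TPM in control cells, and the groups did not overlap. The difference was 1.43 on the log2 scale (SE 0.21, adjusted p = 0.000224), and 1.69 without control 1. Hist1h1e was at 3.03, 2.46 and 3.73 TPM in low-NaHCO3 cells and 1.15, 0.679 and 0.894 TPM in control cells, a difference of 1.09 (SE 0.28), and is a member only through the low-NaHCO3 group. Hist1h1b did not follow, at 1.79, 1.01 and 2.15 TPM in low-NaHCO3 cells and 1.90, 2.06 and 1.66 TPM in control cells (difference -0.14, adjusted p = 0.672).

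H2A genes were low throughout. Hist1h2ac had 2.35, 1.51 and 2.90 TPM in low-NaHCO3 cells, against 1.22, 0.0881 and 0.0993 TPM in control cells, a difference of 1.21 (SE 0.30), and is a member only through the low-NaHCO3 group. For Hist1h2ac control 1 was again the highest library outside low NaHCO3. Hist3h2a had 1.98, 3.50 and 4.73 TPM in low-NaHCO3 cells, against 10.8, 0.917 and 1.38 TPM in control cells. Control 1 was the highest of all 12 libraries for this gene, and the difference was 0.17 with all libraries (adjusted p = 0.818) and 0.99 without it (SE 0.33, adjusted p = 0.0199). Hist3h2a overlaps the gene Trim17 on the same strand (mean 1.08 TPM), so reads there could count for either. Hist1h2ae had 2.26, 1.42 and 3.41 TPM in low-NaHCO3 cells and 0.287, 1.24 and 1.75 TPM in control cells, which overlapped (difference 0.71, adjusted p = 0.243).

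H3 genes chosen without the low-NaHCO3 group held no higher member in low NaHCO3. Hist1h3c, the most abundant of them, had 11.8, 12.3 and 13.1 TPM in low-NaHCO3 cells, against 3.52, 9.37 and 9.0 TPM in control cells. The groups did not overlap, but the difference of 0.79 (SE 0.35) had adjusted p = 0.0767, and without control 1 it was 0.40 with adjusted p = 0.237. Hist1h3h had 0, 1.83 and 0.649 TPM in low-NaHCO3 cells, against 0.982, 5.85 and 3.60 TPM in control cells, a difference of -1.25 (SE 0.49, adjusted p = 0.0494). The groups overlapped, and the call was lost in 13 of 24 alternative settings. For this gene 92.0% of 100-base stretches occur in another gene. Hist1h3a had 0, 1.40 and 0.50 TPM in low-NaHCO3 cells, against 0.756, 2.46 and 4.15 TPM in control cells, and was lower only without control 1 (difference -1.46, adjusted p = 0.0123, against -1.04 and adjusted p = 0.0858 with it). The other 5 H3 members differed by -0.34 to 0.42. Hist1h3e and Hist2h3c2 among them are members only through the low-NaHCO3 group and are given with no test, and none of the others passed.

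The comparisons of low NaHCO3 with the other acidified groups set no control level against it, although the control libraries enter the estimate of the spread and the choice of genes tested. Relative to 15% CO2, 8 of the 27 members chosen without the low-NaHCO3 group were higher in low NaHCO3 and 1 was lower, where 17.2% of the genes chosen in that way were higher and 34.1% lower. Relative to lactic acid, 8 of the 27 were higher and 1 was lower, where 17.5% of such genes were higher and 31.1% lower. Without control 1 the counts grew to 11 of 25 higher and 1 lower relative to 15% CO2, with 23.4% and 45.9% of genes, and to 11 of 25 higher and 2 lower relative to lactic acid, with 24.1% and 43.3% of genes. Over all 36 members 15 were higher and 1 lower in each comparison, where 17.5% of all genes were higher and 33.7% lower relative to 15% CO2, and 17.8% and 30.8% relative to lactic acid. Of these 15, 7 are members only through the low-NaHCO3 group. The lower member was Hist2h2be in both, at -0.76 relative to 15% CO2 and -0.33 relative to lactic acid, and the second of these calls was lost in 16 of 24 alternative settings. Relative to 15% CO2 the largest differences among members were those of Hist3h2ba (3.65), Hist1h4i (3.44) and Hist1h2bg (3.06), and relative to lactic acid those of Hist1h4i (4.05), Hist3h2ba (3.69) and Hist3h2bb-ps (3.05), the last of them chosen through the low-NaHCO3 group. These 2 comparisons share the low-NaHCO3 libraries. For 8 of the 27 members every low-NaHCO3 library lay above all 9 others, where 18% of genes chosen in that way did so, and without control 1 for 8 of 25, against 20.6%.

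Under 15% CO2 no member passed the test against control with all libraries. An unadjusted p under 0.05 was found for 9 of the 36 members and for 15.5% of all genes, 11.4% higher and 4.11% lower. Over all 36 members 5 differences were above 0. At the adjusted threshold 1.28% of all genes were higher and 0.0649% lower. The summed TPM was 121, 142 and 101 under 15% CO2, against 207, 170.3 and 170.3 in control cells, a ratio of 0.664, and these groups did not overlap. Without control 1 the ratio was 0.711. By type it was 0.549 for H4 and 0.533 for H3 with all libraries and 0.492 and 0.448 without control 1, while for H1 it was 1.0 and 1.23. For H2B the ratio was 0.700 with all libraries and 0.917 without control 1, and for H2A 0.544 and 1.18. The median difference of the members was -0.48 on the log2 scale and that of all genes 0.010. Without control 1, Hist1h2bg, Hist1h3c and Hist1h4d were lower, where 1.56% of all genes were lower.

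These 3 genes were at a few TPM. Hist1h4d was at 0.647, 0.488 and 0.231 TPM under 15% CO2, against 1.24, 2.11 and 1.08 TPM in control cells, without overlap (difference -0.76, SE 0.22, adjusted p = 0.132, and -0.82 with adjusted p = 0.0426 without control 1). Hist1h3c was at 3.12, 5.29 and 3.34 TPM under 15% CO2, against 3.52, 9.37 and 9.0 TPM in control cells. Hist1h2bg was at 1.59, 0.450 and 0.852 TPM under 15% CO2, against 1.31, 2.48 and 3.59 TPM in control cells. In the last 2 genes control 1 lay inside the range of the 15% CO2 libraries, and without it their differences were -1.08 (adjusted p = 0.0432) and -1.07 (adjusted p = 0.0484).

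With lactic acid 2 members were lower than in control cells and none was higher, where 1.52% of all genes were lower and 2.47% higher. Hist1h2bj, an H2B gene, was at 0, 0.462 and 0 TPM with lactic acid, against 1.74, 6.14 and 2.13 TPM in control cells, a difference of -1.80 (SE 0.34, adjusted p = 0.0205) and -2.06 without control 1. It was at 2.65, 1.80 and 2.28 TPM under 15% CO2 and at 4.02, 2.16 and 3.46 TPM in low NaHCO3, so its lowest libraries were those with lactic acid. Hist1h4i differed by -1.51 between lactic acid and control (SE 0.37, adjusted p = 0.0461), and by -1.79 without control 1 (adjusted p = 0.00969). That call was lost in 12 of 24 alternative settings, with adjusted p of up to 0.241. Without lactic acid library 1 or library 3 neither gene passed, with adjusted p = 0.0787 and 0.0761 for Hist1h2bj and 0.0978 and 0.144 for Hist1h4i. Without control 1 Hist1h3a was lower as well, at 0.369, 0.401 and 0 TPM with lactic acid, against 0.756, 2.46 and 4.15 TPM in control cells (difference -1.76, adjusted p = 0.0210), where 7.08% of all genes were lower.

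The summed TPM was 118, 118 and 78.7 with lactic acid, against 207, 170.3 and 170.3 in control cells, a ratio of 0.575, and 0.616 without control 1. All 3 lactic acid sums lay below the control sums. By type the ratio was 0.450 for H4 and 0.656 for H3 with all libraries, and 0.404 and 0.551 without control 1. For H2B it was 0.598 and 0.783, for H1 0.793 and 0.972, and for H2A 0.505 and 1.09. The third lactic acid library was the lowest of its group for 23 of the 36 members. Lactic acid and 15% CO2 differed in 0 members (limma, with 5 members and 8.33% of all genes at an unadjusted p under 0.05), where 0.0325% of all genes were higher with lactic acid and 0.17% lower. Without control 1, which belongs to neither group and enters only the estimate of the spread and the choice of genes tested, Hist1h4d was higher and Hist1h2bj lower with lactic acid than under 15% CO2, where 1.64% of all genes were higher and 2.96% lower.

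By genome position, 6 of the 23 members on chromosome 13 that met the rule without the low-NaHCO3 group were higher in low NaHCO3 than in control and 1 was lower, where 19.6% of all such genes were higher and 35.4% lower. Within chromosome 13 M21 places the members in 2 blocks. In the block that holds Hist1h4i, 2 of 12 such members were higher and 1 was lower, and in the block that holds Hist1h1c and Hist1h2bc, 4 of 11 were higher. Chromosomes 11 and 3 held 2 such members each, of which Hist3h2ba on chromosome 11 was higher and Hist2h2be on chromosome 3 lower, and without control 1 Hist3h2a on chromosome 11 was higher too. Whether positions differed was not tested. H2A and H2B genes often lie head to head and share the stretch between their starts, and 3 such pairs had both genes among the members. In the pair of Hist1h2bc and Hist1h2ac, with 251 bases between the starts, the differences between low NaHCO3 and control were 2.53 and 1.21. In the pair of Hist1h2bg and Hist1h2ae, with 176 bases, they were 2.26 and 0.71, and in the pair of Hist3h2bb-ps and Hist3h2a, with 173 bases, 2.19 and 0.17. Hist1h2ac and Hist3h2bb-ps are members only through the low-NaHCO3 group.

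The promoters of 4 higher members are printed because they hold matches to the letters of different sets of known histone promoter elements. Each is 300 bases, from 250 before the annotated start to 50 after it, from RefSeq on GRCm38.p6, and the capitals mark matches on either strand to 4 motifs, which are spelled out after the sequences.
Hist1h4i (RefSeq H4c9, chr13:22041313-22041612, minus strand): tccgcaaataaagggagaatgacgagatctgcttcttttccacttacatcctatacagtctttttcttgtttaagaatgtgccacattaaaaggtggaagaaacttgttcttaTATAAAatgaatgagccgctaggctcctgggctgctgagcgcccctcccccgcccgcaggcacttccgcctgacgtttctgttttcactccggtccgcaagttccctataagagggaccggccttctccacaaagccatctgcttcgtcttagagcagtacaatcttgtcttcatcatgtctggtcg
Hist1h2bg (RefSeq H2bc8, chr13:23571150-23571449, plus strand): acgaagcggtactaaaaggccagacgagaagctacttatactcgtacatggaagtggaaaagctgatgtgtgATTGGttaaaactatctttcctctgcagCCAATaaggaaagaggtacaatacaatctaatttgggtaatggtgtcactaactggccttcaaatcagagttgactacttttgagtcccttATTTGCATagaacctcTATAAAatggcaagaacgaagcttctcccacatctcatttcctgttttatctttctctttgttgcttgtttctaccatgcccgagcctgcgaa
Hist3h2ba (RefSeq H2bu2, chr11:58948661-58948960, plus strand): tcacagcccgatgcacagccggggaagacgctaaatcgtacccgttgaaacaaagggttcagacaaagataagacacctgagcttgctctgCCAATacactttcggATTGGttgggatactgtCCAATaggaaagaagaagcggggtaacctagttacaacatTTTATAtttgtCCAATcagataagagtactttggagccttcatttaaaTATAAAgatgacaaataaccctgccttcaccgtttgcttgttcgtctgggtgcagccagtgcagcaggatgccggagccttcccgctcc
Hist1h1c (RefSeq H1f2, chr13:23738557-23738856, plus strand): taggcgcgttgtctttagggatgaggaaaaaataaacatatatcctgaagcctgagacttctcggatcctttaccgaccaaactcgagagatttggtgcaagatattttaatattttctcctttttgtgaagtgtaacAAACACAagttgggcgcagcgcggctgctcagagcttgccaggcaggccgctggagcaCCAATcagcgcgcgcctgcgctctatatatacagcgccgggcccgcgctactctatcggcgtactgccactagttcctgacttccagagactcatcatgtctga
Promoters were matched for 30 of the 36 members, and in 0 of them did matches of different motifs overlap. The box bound by the factor NF-Y, CCAAT, was in 25 of the 30, and in 37.4% of all 32851 promoters of the table, but in 3 of 8 H4 promoters. The letters of the TATA box, TATAAA, were in 20 of the 30 and in 13.6% of all promoters. They were counted at any position and on either strand, as in Hist1h4i far before the start, so a match need not be a TATA box. The octamer bound by Oct1, ATTTGCAT, was in 7 of the 30, namely 3 of 3 H2A and 4 of 9 H2B promoters, and in 1.74% of all promoters. An element of H1 promoters, AAACACA, was in 4 of the 30, among them 3 of 3 H1 promoters, and in 7.18% of all promoters. A match is a description of letters, and whether the higher members differ from the rest in them was not tested.

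Transcript ends were set beside the result for the 27 members that met the rule without the low-NaHCO3 group. Of the 12 with more than 100 annotated bases after the stem-loop motif 5 were higher in low NaHCO3 than in control, of the 7 with at most 100 bases 1, and of the 8 with no match 1, where 19.6% of all such genes were higher. Without control 1 the counts were 6 of 10, 0 of 7 and 1 of 8, where 22.4% were higher, and whether the classes differed was not tested. Of the 7 such members with more than 50% of their 100-base stretches in another gene, 1 was higher with all libraries and 0 without control 1. Several members with no match have short annotated transcripts. Hist1h4k has 312 bases, Hist1h2bl and Hist1h2bn 381, and Hist1h3h and Hist1h3i 411. Those of Hist1h1b, Hist1h2bc and Hist2h2be are longer, at 743 to 2620 bases. An annotation that stops short of the stem-loop would give no match, so this class need not lack it, which was not tested.

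Genes that act with the clustered histones are given beside the shares of all genes, 19.8% higher and 35% lower between low NaHCO3 and control, and 22.7% and 40.9% without control 1. Of 11 replacement histone variants, most of which are made independently of DNA replication, 2 were higher and 5 lower in low NaHCO3 than in control, and 2 and 7 without control 1. The centromeric H3 variant Cenpa was higher by 2.01 on the log2 scale (SE 0.22) and the H2A.Z gene H2afv by 0.96, while the linker histone H1fx was lower by a difference of -1.39 and the H2A variant H2afx by -1.03. These differences are with all libraries. Control 1 was below controls 2 and 3 for Cenpa (52.7 against 103 and 105 TPM), H1fx (25.7 against 45.6 and 42.5 TPM) and H2afx (50.1 against 64.1 and 62.3 TPM). Without it the difference of Cenpa is smaller and those of H1fx and H2afx are larger. Another linker histone gene, H1f0, was listed at 1015, 972 and 1053 TPM in low-NaHCO3 cells and at 925, 1666 and 1646 TPM in control cells, far above the level of any clustered H1 gene. Of 17 factors of histone gene transcription and histone mRNA processing 6 were higher and 7 lower, and 5 and 10 without control 1. The H4 promoter factor Hinfp was higher by 1.22, the U7 snRNP protein Lsm11 by 1.12 and the histone gene coactivator Npat by 0.54, and the other U7 snRNP protein Lsm10 and the histone pre-mRNA nuclease Mblac1 were lower, with differences of -1.0 and -2.05. Slbp was higher by 0.39 with all libraries (adjusted p = 0.0385) and did not pass without control 1 (0.20, adjusted p = 0.0659).

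Of 18 histone chaperones 4 were higher and 3 lower in low NaHCO3, and without control 1, 4 were higher and 11 lower, among them the replication-coupled factors Chaf1a (-0.73) and Chaf1b (-0.78). Of 24 S phase genes 4 were higher and 5 lower, and 4 and 9 without control 1, and their median difference went to -0.11 without control 1, against 0.18 with it. The replication licensing factor Cdt1 was higher by 1.17, and the thymidylate synthase gene Tyms was lower, with a difference of -1.14. Of 10 genes of G2 and mitosis 7 were higher and none lower, led by Top2a, the DNA topoisomerase of dividing cells, with a difference of 1.25, and without control 1 the count was again 7. Their median difference was 0.79 with control 1 and 0.47 without it. Control 1 was below controls 2 and 3 for Cdt1 (44.0 against 97.7 and 98.7 TPM), Tyms (29.5 against 59.9 and 52.3 TPM) and Top2a (200 against 395 and 392 TPM). Without it the differences of Cdt1 and Top2a are smaller and that of Tyms is larger. Under 15% CO2 none of these 5 lists had a gene that passed with all libraries, and without control 1, 2 S phase genes, 2 chaperones and 1 variant were lower and none was higher, where 1.56% of all genes were lower. With lactic acid 1 variant (H2afj, -0.85) and 2 mRNA factors (Srrt, -0.42, and Upf1, -0.40) were lower, and without control 1, 11 of the 24 S phase genes, 6 of the 17 mRNA factors, 6 of the 18 chaperones, 2 of the 11 variants and 1 of the 10 G2 and mitosis genes were lower and none was higher, where 7.08% of all genes were lower.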

How the data were processed

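The deposited table gives TPM per gene and library; the authors trimmed reads with fastp 0.22.0 and aligned them with HISAT2 2.1.0 to GRCm39, per the submitters' processing notes. How reads were counted, on which annotation and with or without strand, is not given in the sources used here. Without counts the depth of each library is unknown, so no counting intervals are given. Names, transcripts and lengths came from GENCODE M21, an older build, matched by Ensembl ID for 21851 of 21959 genes.

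The members, gene lists and tests were chosen with earlier results of these data known. Genes at 1 TPM or more in at least 3 of 12 libraries were tested (12326 genes, and 12226 without control 1). TPM was transformed as log2(TPM + 1), where the pseudocount shrinks differences of genes at a few TPM. A group-means model was fitted in R 4.3.3 with limma 3.58.1 (trended eBayes, two-sided, Benjamini-Hochberg adjustment per contrast over all genes tested, threshold 0.05). It was also run on simulated data with few changed genes and a spread taken without control 1. That run does not check the model where a control library stands apart or many genes change. Named members were the 2 most abundant of each type, up to 6 per direction in a contrast with control and 3 in other contrasts, and members that explain a count. Errors are SE from the model.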

Additional observations from a re-analysis of the deposited data

How the results depend on the processing

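Hist1h2bc, Hist1h2bg, Hist1h4i and Hist3h2ba kept direction and call between low NaHCO3 and control in each of 24 alternatives. The counts that follow are over all members, the 9 chosen through the low-NaHCO3 group included. They join both directions, and describe how far the counts move, not how members differ from genes at large. With all libraries 19.8% of all genes were higher and 35% lower between low NaHCO3 and control. Relative to 15% CO2 these shares were 17.5% and 33.7%, and relative to lactic acid 17.8% and 30.8%. Without control 1 they were 22.7% and 40.9%, 23.8% and 45.5%, and 24.4% and 42.9%. Between low NaHCO3 and control 11 to 16 members passed when single libraries were left out, relative to 15% CO2 15 to 20, and relative to lactic acid 13 to 21. Against control, 15% CO2 gave 0 to 3 members in these fits and lactic acid 0 to 3, with 0 when lactic acid library 1 or 3 was left out. Lactic acid minus 15% CO2 gave 0 to 2. With all libraries 1.28% of all genes were higher and 0.0649% lower under 15% CO2, and 2.47% and 1.52% with lactic acid. Without control 1 these shares were 5.82% and 1.56%, and 9.05% and 7.08%. For lactic acid minus 15% CO2 they were 0.0325% and 0.17%, and 1.64% and 2.96% without control 1. Shares in the other settings are not given here. With control 1 left out and median-of-ratios scaling, 4 members passed for 15% CO2, 4 for lactic acid and 2 between these. With control 1 left out and the length trend removed the counts were 3 for 15% CO2 and 3 between lactic acid and 15% CO2, and with a pseudocount of 0.1, a setting chosen after seeing the data, 4 and 2. Without the filter lactic acid had 1 member. Fitting only the groups compared gave lactic acid 0 of 25 members tested and lactic acid minus 15% CO2 1. The causes of these shifts were not tested. Ratios of sums moved for H2A, where without single libraries they ranged from 0.415 to 1.18 (15% CO2), from 0.385 to 1.09 (lactic acid) and from 1.03 to 2.93 (low NaHCO3), with the highest value of each when control 1 was left out, and without Hist3h2a, the most abundant H2A member, 1.07 for lactic acid and 2.96 for low NaHCO3. Without Hist1h4i the H4 ratio was 0.744 with lactic acid and 1.37 in low NaHCO3, and that of all members 2.35 in low NaHCO3. Of 18 same-numbered pairs of libraries 3 had deviations correlated above 0.1. For 15% CO2 and lactic acid the correlation was 0.313 between the libraries numbered 2 and 0.462 between those numbered 3. Pairs with different numbers were not compared, so these values cannot show that pairing is absent. With the replicate block, 0 members passed for 15% CO2, 2 for lactic acid, 15 for low NaHCO3, 0 for lactic acid minus 15% CO2, 17 for low NaHCO3 minus 15% CO2 and 16 for low NaHCO3 minus lactic acid; with control 1 left out as well, 3, 4, 16, 2, 20 and 21.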
